A study of Homo sapiens with 3 samples.

Results

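The receptors described here were 3 ketosteroid receptors (NR3C1, NR3C2 and PGR), 2 estrogen receptors (ESR1 and ESR2) and 3 estrogen-related receptors (ESRRA, ESRRB and ESRRG). They were chosen by gene symbol and by no cutoff on their values, though with earlier results of these data known. All 8 had a row among the 27024 genes counted in each library, a number that holds after identical neighbouring rows were merged. RNA-seq was available for 3 libraries of 22Rv1 cells of WT genotype, numbered as replicates 1 to 3. 22Rv1 cells are an established line of human prostate cancer, grown here in RPMI1640 medium with fetal bovine serum, with no added hormone named in the labels. The study used WT cells as the reference for cells with a deleted or altered enhancer, and those libraries were not analysed here. The sources call the WT samples replicates in one place and control clones in another, so whether the spread between them is that of clones or of cultures could not be settled.

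Steroid hormone receptors are transcription factors of the nuclear receptor family. In the absence of hormone, the ketosteroid receptors are held by HSP90 chaperones, and with hormone they bind DNA as dimers and recruit coactivators. NR3C1 is the receptor for glucocorticoids, NR3C2 the receptor for mineralocorticoids, which also binds cortisol, and PGR the receptor for progesterone. ESR1 and ESR2 bind estrogens. The estrogen-related receptors resemble the estrogen receptors in sequence but do not bind estrogens, and they are known for the control of mitochondrial and energy metabolism together with PPARGC1 coactivators. In prostate cancer, NR3C1 is known as a receptor whose target genes partly overlap those driven by androgens.

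The RNA of this family in WT cells was dominated by ESRRA. ESRRA had 5320 ± 241 normalized counts (SD, n = 3), NR3C1 had 676 ± 71.1 and NR3C2 had 492 ± 20.7. These 3 genes reached 1 CPM (CPM being reads scaled to a common library size) in each library, the level at which a gene was called expressed. ESRRG and ESR2 lay around 1 CPM, and PGR, ESR1 and ESRRB had at most 7 reads in any library. Of all genes counted, 47.7% were expressed by the same measure.

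Normalized counts are the reads the authors counted, scaled down by a size factor for each library (1.27, 1.18 and 1.27). After identical neighbouring rows were merged, the libraries held 38252744, 35675670 and 38629080 reads on the genes. By the size factors, 3 reads, the limit that a count of 0 allows, stood for 2.37, 2.54 and 2.36 normalized counts. Among luminal prostate markers 11 of 11 were expressed, with summed levels of 104496 to 107995 normalized counts, with KRT8, KRT18 and FOXA1 among the highest. Of the basal markers 0 of 4 were expressed (sums of 13.5 to 24.5), and KRT5, KRT14 and TP63 had 0 reads. Of the leukocyte markers 0 of 4 were expressed (sums of 10.3 to 32.3, CD3E at 0 reads), and of the endothelial markers 0 of 2 with a row (sums of 0 to 1.6, CDH5 at 0 reads). Of the stroma and smooth muscle markers 3 of 8 were expressed, COL1A1, LUM and ACTA2, with sums of 494 to 589 normalized counts and DES at 0 reads. In bulk RNA, fewer cells with a transcript and less transcript per cell cannot be told apart.

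**Figure D1:**
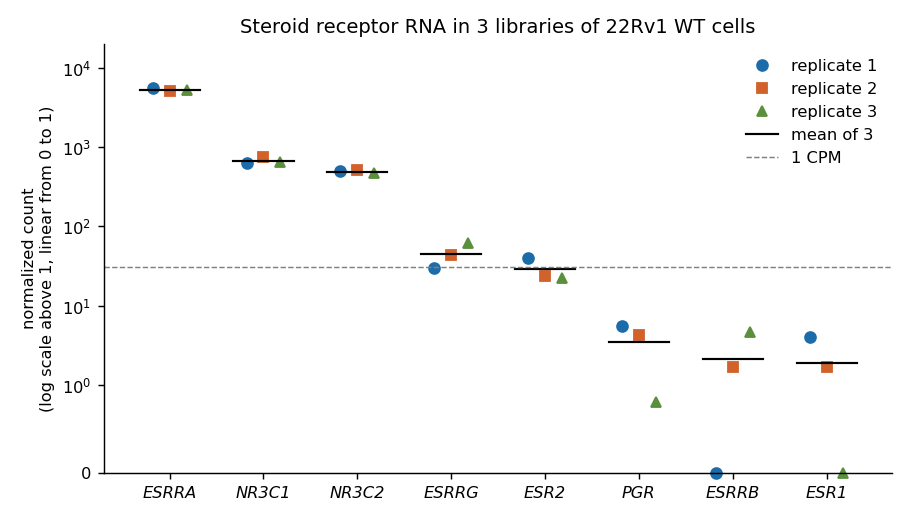
Normalized counts of the 8 receptors (y axis, logarithmic above 1 and linear from 0 to 1) in the 3 WT libraries, with the mean as a black bar and 1 CPM as a dashed line. ESRRA, NR3C1 and NR3C2 sit above 1 CPM in each library, ESRRG and ESR2 straddle it, and PGR, ESRRB and ESR1 sit below it.

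ESRRA lies at chr11:64072969-64084215 on the plus strand of GRCh37, the smallest of the 8 genes at 11.2 kb, with 7 exons and 2274 bases in its canonical transcript. Its normalized counts were 5595.2, 5146.9 and 5216.4 in the order of the replicates, from 7082, 6082 and 6626 reads. Its coefficient of variation was 4.54%, against a median of 4.88% for expressed genes, and 91.0% of the expressed genes had a lower mean. Some of its reads may be shared with other genes. Its exons overlap those of TRMT112, a methyltransferase activator gene on the opposite strand, over 284 bases or 9.16% of its exonic sequence, and TRMT112 had 5316 ± 271 normalized counts (SD, n = 3) on its own row. Whether reads were counted by strand is not given in the sources used here. The pseudogenes ESRRAP1 and ESRRAP2 match 1285 bases of the transcript at 93.5% and 93.2% identity, and neither had a row.

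ESRRB and ESRRG, the other estrogen-related receptors, were far lower. ESRRG (chr1:216676588-217311097, minus strand) spans 634.5 kb and is the longest of the 8 genes. It had 38, 51 and 79 reads in replicates 1 to 3, which were 0.993, 1.43 and 2.05 CPM, and a mean of 45.1 ± 16.2 normalized counts (SD, n = 3). Replicate 1 alone kept it below the level for an expressed gene. ESRRB (chr14:76777055-76968180, plus strand), which is known from embryonic stem cells and the placenta, had 0, 2 and 6 reads. Its 8 reads in all carried a 95% Poisson interval of 3.45 to 15.8 reads, which like all such intervals here covers counting error only.

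Both estrogen receptors were low. ESR2 (chr14:64550950-64804830, minus strand) had 40.3, 23.7 and 22.0 normalized counts in the 3 libraries, or 1.33, 0.784 and 0.726 CPM. It passed 1 CPM in replicate 1 only. ESR1 (chr6:151977826-152450754, plus strand), the receptor that drives most breast cancers classed as hormone receptor positive, had 5, 2 and 0 reads, 7 in all with a 95% Poisson interval of 2.81 to 14.4. Its mean of 1.90 normalized counts was below the limit of 3 reads, so ESR1 RNA was near the lower limit of what this depth can show. Small parts of ESR1 and ESR2 exons, 135 and 523 bases, are shared with lncRNA genes on the same strand that had no row.

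Of the ketosteroid receptors, NR3C1 and NR3C2 were expressed and PGR was not. NR3C1 (chr5:142657496-142815077, minus strand) had 630.5, 758.2 and 640.0 normalized counts, and replicate 2 stood apart from the other pair. NR3C2 (chr4:148999913-149365850, minus strand) had 494.6, 511.1 and 470.0 normalized counts, with a coefficient of variation of 4.20% against 10.5% for NR3C1. Both were below the median of expressed genes, which was 1113 normalized counts, with 37.0% of the expressed genes below NR3C1 and 30.3% below NR3C2. PGR (chr11:100900355-101000544, minus strand), itself a classical estrogen-induced gene, had 7, 5 and 1 reads, 13 in all with a 95% Poisson interval of 6.92 to 22.2. PGR shares 737 exonic bases with the antisense gene PGR-AS1, which had no row.

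Because longer transcripts give more reads, the receptors were compared with each other per kilobase of canonical transcript. ESRRA had 2339 ± 106 normalized counts per kilobase (SD, n = 3), above 92.0% of the expressed genes on this scale, whose median was 315. NR3C1 followed at 99.8 ± 10.5 and NR3C2 at 84.9 ± 3.57 normalized counts per kilobase. The lower receptors had 8.69 ± 3.12 for ESRRG, 4.19 ± 1.48 for ESR2, 0.426 ± 0.475 for ESRRB, 0.300 ± 0.317 for ESR1 and 0.268 ± 0.186 for PGR. Neighbours in this order were called separate where their 3 values did not overlap, as a description with no test, and 4 of 7 neighbouring pairs were separate. ESRRA stood 23.4 times above NR3C1, NR3C2 stood 9.78 times above ESRRG, and ESR2 stood 9.84 times above ESRRB. These ratios depend on the length used. With the coding length, chosen after seeing the data, ESRRA stood 14.4 times above NR3C1 and NR3C2 stood 5.07 times above ESRRG, and with the union of all annotated exons NR3C2 stood 18.0 times above ESRRG.

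The level of NR3C1 per kilobase was 1.17 times that of NR3C2. NR3C1 had 93.0, 112 and 94.4 normalized counts per kilobase and NR3C2 had 85.4, 88.2 and 81.1, so the libraries did not overlap. With the union of all annotated exons the ratio was 0.991, from 0.919 to 1.07 in single libraries, and 3 of 7 pairs were separate. ESRRG and ESR2 overlapped, and ESRRB, ESR1 and PGR could not be ordered.

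**Figure D2:**
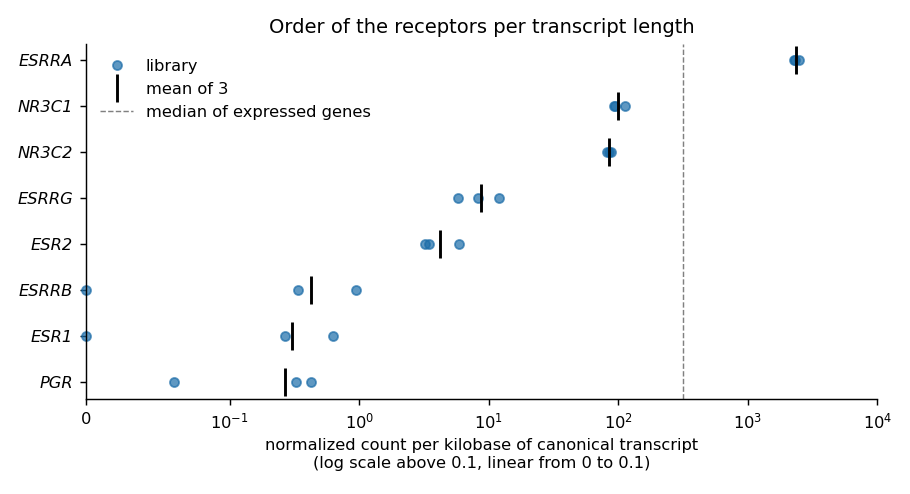
Normalized counts per kilobase of canonical transcript (x axis, logarithmic above 0.1 and linear from 0 to 0.1) for the 8 receptors, with each WT library as a point and the mean as a bar. ESRRA lies right of the dashed line, the median of expressed genes at 315, while NR3C1 at 99.8 and NR3C2 at 84.9 lie left of it.

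The ratio of ESRRA to NR3C1 per kilobase was 26.5, 20.2 and 24.3 in replicates 1 to 3, and that of ESRRA to NR3C2 was 28.8, 25.6 and 28.3. With the coding length the ratio of ESRRA to NR3C1 lay between 12.5 and 16.3 in the libraries, and in normalized counts without division by length between 6.79 and 8.87. ESRRA was the highest receptor in each library on each of these scales. Of the summed per-kilobase level of the 8 receptors, ESRRA made up 92.2% ± 0.701 (SD, n = 3), NR3C1 3.94% ± 0.520 and NR3C2 3.35% ± 0.187. ESRRG contributed 0.345% ± 0.132 and ESR2 0.164% ± 0.0508. Without division by length the share of ESRRA was 81.0%. These shares are of transcripts, not of receptor protein, which was not measured.

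The RefSeq promoters of the receptors were read to show what lies before their starts, with coordinates in GRCh38.p14 as that table gives them. Each window held the 250 bases before a start site, and the 8 genes had 37 of the 35116 windows. Windows of close start sites overlap, so the 37 are not all separate stretches. The windows of ESRRA, of 1 start of NR3C1 and of 1 start of ESRRB are printed here, since these held the most CpG of their gene and stand for the highest receptor, an expressed ketosteroid receptor and a receptor at the limit of detection. The windows are chr11:64305274-64305523 on the plus strand, chr5:143403687-143403936 on the minus strand and chr14:76375887-76376136 on the plus strand, written 5′ to 3′ along the gene, with capitals marking the GC box GGGCGG on either strand.
ESRRA: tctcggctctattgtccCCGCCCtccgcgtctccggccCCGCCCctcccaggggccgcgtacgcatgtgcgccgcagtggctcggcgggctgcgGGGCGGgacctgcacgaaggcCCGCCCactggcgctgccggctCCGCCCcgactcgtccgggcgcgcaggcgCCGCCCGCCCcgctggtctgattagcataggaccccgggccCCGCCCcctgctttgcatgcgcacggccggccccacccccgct
NR3C1: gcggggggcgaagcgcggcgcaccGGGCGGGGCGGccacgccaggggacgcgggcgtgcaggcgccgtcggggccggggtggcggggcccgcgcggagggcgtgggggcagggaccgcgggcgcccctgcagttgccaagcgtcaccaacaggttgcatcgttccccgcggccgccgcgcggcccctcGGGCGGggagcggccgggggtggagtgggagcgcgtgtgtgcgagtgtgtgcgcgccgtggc
ESRRB: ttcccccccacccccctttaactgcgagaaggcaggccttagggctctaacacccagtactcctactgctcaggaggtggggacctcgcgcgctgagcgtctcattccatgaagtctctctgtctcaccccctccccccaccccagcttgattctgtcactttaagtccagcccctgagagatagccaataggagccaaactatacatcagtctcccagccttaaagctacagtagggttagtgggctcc

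The only ESRRA window had 78.0% G and C, 35 CpG and 8 GC boxes, counted with overlaps, and 0.584% of all windows had as many GC boxes. The printed NR3C1 window had 42 CpG and 3 GC boxes, and the printed ESRRB window had 5 CpG and 0 GC boxes. The highest CpG count of a gene's windows was 40 for NR3C2, 29 for both ESR2 and ESRRG, 12 for PGR and 11 for ESR1. The 3 expressed receptors thus had the 3 highest counts of the 8. Across genes the median of this highest count was 23 for 10339 expressed genes and 5 for 6968 other genes with a listed window, a difference of the same direction. In both comparisons a highest count can only rise with the number of windows, which ran from 1 for ESRRA to 8 for ESRRG. The windows of NR3C1 held 0 to 42 CpG and those of NR3C2 11 to 40. Which start was used in these cells was not measured. A GC box was in 18 of the 37 receptor windows and in 42.6% of all windows.

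The half-site AGGTCA, in which many nuclear receptors find part of their binding sequence, was in 4 of the 37 receptor windows, from ESR2 and ESRRG, and in 12.1% of all windows. The 2 ESR2 windows with this half-site overlap, so the same site may be counted in both. Its extended form TNAAGGTCA, known as the estrogen-related receptor element and overlapping the half-site, was in 0 of 37 and in 0.854% of all windows. The glucocorticoid half-site AGAACA was in 2 of 37 and in 12.4% of all windows. Both strands were searched, and a match is a run of letters and not a site of binding.

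The 3 WT libraries come from 1 condition, so the question their reads allow is whether a receptor varied between libraries by more than counting error. The reads of each gene with a mean of at least 10 reads were compared by a chi-square test of homogeneity against the scaled library sizes, with Benjamini-Hochberg adjustment over all 14646 genes tested. Of the 5 receptors tested, 4 differed between libraries, and among all genes 41.9% did. PGR, ESR1 and ESRRB had means under this minimum. When the minimum was lowered to 1 read, none of them passed the same test, with adjusted p of 0.190 for PGR, 0.133 for ESR1 and 0.0772 for ESRRB, whose unadjusted p was 0.0349. ESRRA gave 14.1 for the chi-square over its degrees of freedom (adjusted p = 1.06e-05), NR3C1 gave 9.30 (adjusted p = 0.000610), ESRRG gave 7.25 (adjusted p = 0.00331) and ESR2 gave 4.48 (adjusted p = 0.0308). NR3C2 gave 1.19 with an adjusted p of 0.404. Differences were common at the same depth: 54.8% of genes with 3000 to 10000 mean reads, where ESRRA lay, 35.9% of those with 500 to 1000 reads, where NR3C1 and NR3C2 lay, and 33.1% of those with 10 to 100 reads, where ESRRG and ESR2 lay.

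Each of the 4 receptors lost its call when 1 library was left out. NR3C1 in replicate 2 exceeded the mean of the other libraries by 0.26 on the log2 scale, and without replicate 2 the adjusted p of the same test was 0.898. ESRRA in replicate 1 exceeded the other libraries by 0.11 on the log2 scale, and without replicate 1 its adjusted p was 0.741. ESRRG was highest in replicate 3 and lowest in replicate 1, and its adjusted p was 0.120 without replicate 1 and 0.214 without replicate 3. ESR2 was highest in replicate 1, and its adjusted p was 0.863 without replicate 1 and 0.0808 without replicate 3. With the spread between libraries allowed for by edgeR's trended dispersion, 0 of the 5 receptors differed, also at an unadjusted p under 0.05, and 0.416% of all genes did. With the chi-square divided by its mean value in genes of 10 to 50 reads (3.49 over the degrees of freedom), 0 of 5 differed, with ESRRA alone under an unadjusted p of 0.05, and 3.47% of all genes did. Both allowances were estimated from these same 3 libraries, so most calls were bound to be lost. They set a receptor's spread against that of other genes and cannot show whether it varied beyond counting error.

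**Figure D3:**
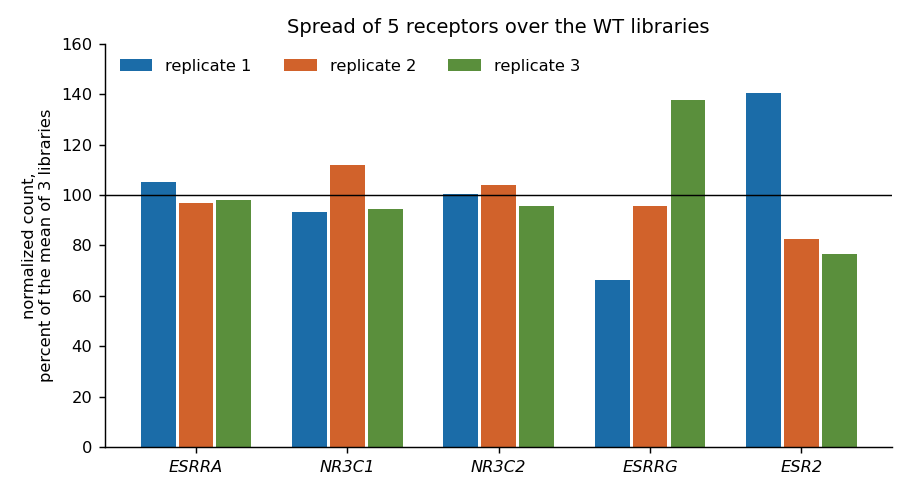
Normalized count of 5 receptors in each WT library as a percent of the receptor's mean over the 3 libraries (y axis, from 0). NR3C2 and ESRRA stay near 100%, NR3C1 is higher in replicate 2, ESRRG is highest in replicate 3 and ESR2 is highest in replicate 1.

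Transcript length moved with the libraries. Among expressed genes, the median log2 of replicate 2 over the others was -0.04 for canonical transcripts of 1000 to 3000 bases and 0.03 for those of 5000 to 8000 bases. ESRRA, of 2274 bases, had -0.07 and NR3C1, of 6778 bases, had 0.26, each with the sign of its length class. NR3C2, of 5792 bases, had 0.08. For replicate 1 over the others the class medians were 0.01 and -0.01, against 0.11 for ESRRA, -0.15 for NR3C1 and 0.01 for NR3C2, whose sign was opposite to that of its class. The part of length in the difference of these receptors was not tested.

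The partners of the receptors were measured from lists of textbook members, described by counts with no test. Of the genes listed as HSP90 chaperones of steroid receptors and their partners, 15 of 15 were expressed, against 47.7% of all genes. They were led by HSPA8 at 78063 ± 1834 normalized counts (SD, n = 3), HSP90AA1 at 67559 ± 623, HSP90AB1 at 62639 ± 1291 and FKBP4, an immunophilin of the receptor complex, at 23346 ± 277. Per kilobase, all 15 stood above NR3C1 and 10 above ESRRA.

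Coactivators, which carry or recruit histone-modifying enzymes, were expressed for 15 of 16 genes, against 47.7% of all genes. PRMT1, an arginine methyltransferase, had 11989 ± 329 normalized counts (SD, n = 3), NCOA4 had 5805 ± 144, EP300, a histone acetyltransferase, had 4553 ± 495 and PELP1 had 4263 ± 169. The exception was PPARGC1A, the coactivator best known as a partner of ESRRA in mitochondrial biogenesis, at 10 reads in each library and 1.29 normalized counts per kilobase. Its relative PPARGC1B, which is outside the naming rule and was chosen after its value was seen, had 145 normalized counts per kilobase. Per kilobase, 15 coactivators stood above NR3C1 and PRMT1 alone above ESRRA. Of the corepressors 8 of 8 were expressed and above NR3C1 per kilobase, with NCOR1 at 7444 ± 449 normalized counts, TBL1XR1 at 4502 ± 45.4 and LCOR at 3057 ± 78.1 (SD, n = 3).

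Of the listed enzymes tied to the metabolism of glucocorticoid and estrogen ligands, 6 of 10 were expressed, or 60.0%, against 47.7% of all genes. HSD17B4, a peroxisomal enzyme that can oxidize estradiol, was highest at 7193 ± 201 normalized counts (SD, n = 3), followed by H6PD, HSD17B8 and HSD11B2. HSD11B2, which inactivates cortisol and thereby shields NR3C2 from it in the kidney, had 519 ± 8.85 normalized counts, and at 274 per kilobase it stood above both NR3C1 and NR3C2. HSD11B1, which regenerates cortisol, CYP19A1, the aromatase that makes estrogens, and HSD17B2 had 0 reads in each library, which allows up to 3 reads. SULT1E1, an estrogen sulfotransferase, had 2, 1 and 3 reads.

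**Figure D4:**
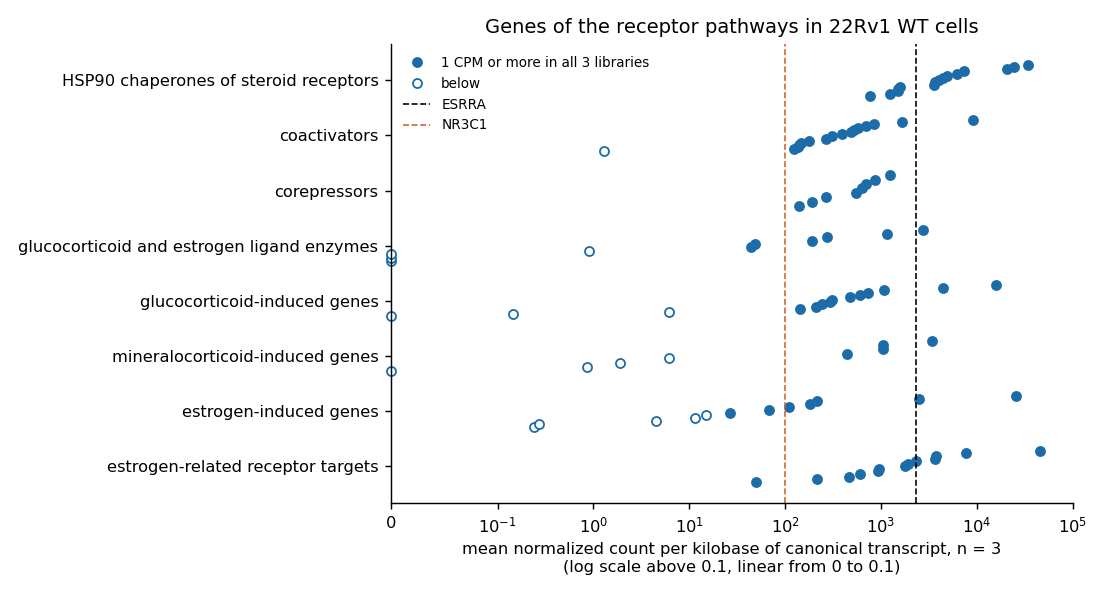
Mean normalized count per kilobase of canonical transcript (x axis, logarithmic above 0.1 and linear from 0 to 0.1, n = 3) for the genes of 8 lists, filled where expressed and open where not. Dashed lines mark ESRRA and NR3C1, and the chaperones and corepressors all lie right of NR3C1.

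Genes known to respond to the receptors were read in the same way, as levels in 1 culture condition that do not measure receptor activity. Of the estrogen-related receptor targets, a list that includes ESRRA itself, 13 of 13 were expressed, against 47.7% of all genes. The highest were the mitochondrial genes ATP5F1B, a subunit of ATP synthase, at 80127 ± 1760 normalized counts (SD, n = 3), CS, the citrate synthase, at 22262 ± 668, and CYCS, cytochrome c, at 19826 ± 287, followed by ESRRA. Per kilobase, 4 of them stood above ESRRA.

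Of the glucocorticoid-induced genes, 11 of 14 were expressed, against 47.7% of all genes. FKBP5, a chaperone that also responds to androgens, had 16470 ± 936 normalized counts (SD, n = 3), the metallothionein MT2A had 6318 ± 392, the glutamine synthetase GLUL had 4593 ± 48.1 and the zinc finger factor ZBTB16 had 4045 ± 330. SGK1, a kinase induced through both NR3C1 and NR3C2, was not expressed, at 30, 27 and 17 reads. The liver enzymes TAT and PCK1 had 0, 2 and 0 reads and 0 reads throughout.

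Of the mineralocorticoid-induced genes, 4 of 8 were expressed, close to the 47.7% of all genes. Among them NEDD4L, a ubiquitin ligase that acts on the epithelial sodium channel, had 3865 ± 45.1 normalized counts (SD, n = 3), SCNN1A had 3294 ± 96.9 and ATP1B1 had 2320 ± 42.6. SCNN1A encodes the alpha subunit of that channel, while the beta and gamma subunit genes SCNN1B and SCNN1G had 1, 5 and 2 reads and 18, 0 and 7 reads. KCNJ1, a kidney potassium channel, had 0 reads.

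Of the estrogen-induced genes, 7 of 12 were expressed, or 58.3%, near the 47.7% of all genes. CCND1, cyclin D1, had 107656 ± 677 normalized counts (SD, n = 3), XBP1 had 4464 ± 125, CA12 had 1108 ± 34.8 and STC2 had 914 ± 110. The 5 genes of the list that were not expressed included TFF1 at 12, 0 and 16 reads, AREG at 12, 1 and 8 reads, IGFBP4 at 0, 1 and 1 reads and PGR as given for the receptor itself. GREB1, MYB and RARA, the expressed genes outside the naming rule, had 229 ± 33.9, 251 ± 2.95 and 357 ± 31.5 normalized counts (SD, n = 3). PDZK1, at 33, 37 and 17 reads, is named outside the rule because it is the remaining unexpressed gene of the list.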

How the data were processed

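RNA-seq of 3 WT libraries of 22Rv1 cells was used. The authors aligned the read pairs with HISAT2 (GRCh37), counted genes by HTSeq and applied DESeq2 normalization. The version of HISAT2, the strandedness of the counting, the annotation release and the treatment of reads mapping to several places are not given in the sources used here. The deposited signal is the read count of a gene over the size factor of its library, given to 1 decimal. Reads were recovered as whole multiples of 1 step per library, and 100% of values came out whole within 0.05 normalized counts. Of 29000 rows, 1976 repeated the row above in all libraries and were merged. The 29000 rows held 28760 different identifiers, so most merged rows differed in identifier from the row above. Merging removed 10.7%, 10.6% and 10.6% of the reads of replicates 1 to 3 and left the 27024 rows called genes here. Rows of the 8 receptors were not affected. Symbols matched 86.3% of identifiers.

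Library sizes were scaled by TMM on recovered reads (edgeR 4.0.16, R 4.3.3). A chi-square test of homogeneity was run in scipy 1.17.1 (with numpy 2.4.6 and pandas 2.3.3) on genes averaging 10 reads or more. Its p-values were adjusted by Benjamini-Hochberg and called under 0.05, and the script was tested on simulated data. This replaced a contrast between conditions, since 1 group was analysed. P-values and SDs describe the spread between these 3 libraries, which may be technical. Size factors re-estimated in DESeq2 1.42.0, library totals, other minimum reads, an allowance for dispersion and the omission of single replicates were the alternatives. Positions, exons and transcript lengths came from GENCODE annotation lifted to GRCh37, similar sequences from blastn 2.17.0 and promoters from RefSeq on GRCh38.p14. Figures were drawn with matplotlib 3.10.9.

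The members and lists were chosen with earlier results of these data known. Named were the 8 receptors and, for each other list, the 4 genes of highest mean normalized count and the genes below 1 CPM in all 3 libraries. Not every receptor of the family, and not every gene this rule names, is reported here.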

Additional observations from a re-analysis of the deposited data

How the results depend on the processing

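The level of each receptor moved by at most 0.904% when libraries were scaled by TMM, totals or re-estimated size factors. Leaving out single replicates moved low levels by more: ESR1, at 1.90 normalized counts, became 0.85 without replicate 1 and 2.85 without replicate 3, and ESRRB, at 2.13, became 3.20 without replicate 1 and 0.85 without replicate 3. The number of receptors that differed between WT libraries was 4, fell to 0 with edgeR's trended dispersion added and to 0 with the chi-square scaled by genes of 10 to 50 reads, and was 1 to 3 with each replicate left out in turn. Over all genes the count of 6141 became 61 and 508 under the same settings and 3323 to 3950 with a replicate left out. The dispersion and the scaling of the chi-square were estimated from the same 3 libraries, so a fall under them was built in. The other scalings, minimum reads and unmerged rows left both counts within 1.5 times. The count of expressed receptors rose from 3 to 5 at 0.5 CPM and to 5 with a mean of 10 reads, and was 3 at 5 CPM. The ESRRA share of 92.2% became 89.1% with the coding length, an alternative chosen after seeing the data, and 81.0% without division by length. The part of each cause in these changes was not tested. Counts of expressed genes in the pathway lists stayed within 1.5 times at 0.5 and 5 CPM. Depth limits PGR, ESR1 and ESRRB, which had at most 7 reads in a library. No paired analysis was possible because only 1 group was analysed.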
